A study of Mus musculus with 246 samples.

Results

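The data described here concern 26 genes of GABA and glycine signalling, taken by gene name from the 56691 genes of a brain RNA-sequencing table. The list was fixed by name: 12 GABA-A receptor subunits, both GABA-B receptor subunits, 5 genes for the synthesis, vesicular loading, uptake and breakdown of GABA, the postsynaptic scaffold gephyrin, 2 chloride cotransporters and 4 glycine receptor subunits. It does not hold every subunit or transporter of the family. Poly-A RNA was sequenced from tissue punches of 6 brain regions of 41 adult male CD1 mice, an outbred stock, with 1 library per mouse and region. Cortex was sampled in the medial prefrontal (mPFC) and the anterior cingulate area (ACC), and below it the shell of the nucleus accumbens (Nacc). The other punches were from the thalamus in its dorsomedial part (DMT), the amygdala in its basolateral part (BLA) and the hippocampus in its ventral part (vHipp). Punches from both hemispheres of a mouse were pooled.

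Mice of the ELA groups were raised under early life adversity, in which dams had limited bedding and nesting material in the first postnatal days, and control (Ctrl) mice were raised under standard conditions. The dams received 1 slow-release gel depot under the skin, which held SAFit2, an inhibitor of the stress-related co-chaperone FKBP51, or no drug (vehicle, Veh), so the pups were exposed through the dam. The groups were Ctrl_Veh, ELA_Veh and ELA_SAFit2, with no control group given SAFit2. Brains were collected with no social exposure (7 mice per group) or after 10 minutes with an unfamiliar mouse (6 Ctrl_Veh, 7 ELA_Veh and 7 ELA_SAFit2 mice). The labels do not name litters, so mice of a group may share a dam. Library totals ranged from 20804247 to 43351424 estimated counts.

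GABA is the main inhibitory transmitter of the forebrain. It is made from glutamate by the enzymes encoded by Gad1 and Gad2, loaded into vesicles by the transporter of Slc32a1, cleared by transporters such as that of Slc6a11, and broken down by the transaminase of Abat. GABA-A receptors are chloride channels of 5 subunits drawn from several families, GABA-B receptors are G protein-coupled heterodimers, and glycine receptors are chloride channels related to GABA-A receptors; the chloride gradient that sets their effect is maintained by the cotransporters of Slc12a5, which extrudes chloride, and Slc12a2, which imports it.

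Upstream sequence is shown for 5 genes with steep differences between regions, in groups that each shared a highest region: the GABA-making genes Gad1 and Gad2 with the vesicular transporter Slc32a1, all highest in the Nacc, and the epsilon and theta subunit genes Gabre and Gabrq, both highest in the BLA. Each is the 250 bases before the transcript start in RefSeq (build GRCm38.p6), printed 5′ to 3′ on the gene's strand, and capitals mark the GC box, GGGCGG or its other strand CCGCCC.
Gad1, chr2:70561879-70562128, plus strand: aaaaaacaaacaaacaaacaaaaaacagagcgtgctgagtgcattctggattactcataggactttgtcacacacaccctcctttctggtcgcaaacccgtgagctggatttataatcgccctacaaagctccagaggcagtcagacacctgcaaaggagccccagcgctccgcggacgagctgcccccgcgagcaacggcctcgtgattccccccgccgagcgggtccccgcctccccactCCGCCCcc
Gad2, chr2:22622077-22622326, plus strand: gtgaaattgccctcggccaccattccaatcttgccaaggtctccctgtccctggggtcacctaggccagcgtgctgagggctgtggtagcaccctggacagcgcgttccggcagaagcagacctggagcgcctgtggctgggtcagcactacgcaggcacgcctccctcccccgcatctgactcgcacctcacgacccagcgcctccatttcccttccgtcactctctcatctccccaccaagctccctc
Slc32a1, chr2:158610508-158610757, plus strand: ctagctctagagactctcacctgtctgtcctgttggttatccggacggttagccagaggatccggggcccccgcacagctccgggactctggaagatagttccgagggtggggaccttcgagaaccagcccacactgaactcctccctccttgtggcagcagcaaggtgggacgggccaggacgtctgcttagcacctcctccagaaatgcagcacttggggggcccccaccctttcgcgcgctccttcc
Gabre, chrX:72274722-72274971, minus strand: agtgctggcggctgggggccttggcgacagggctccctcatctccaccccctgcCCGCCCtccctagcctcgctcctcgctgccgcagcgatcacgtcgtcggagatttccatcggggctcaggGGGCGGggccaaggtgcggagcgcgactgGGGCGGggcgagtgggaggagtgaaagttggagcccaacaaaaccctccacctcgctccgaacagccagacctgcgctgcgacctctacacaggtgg
Gabrq, chrX:72824928-72825177, plus strand: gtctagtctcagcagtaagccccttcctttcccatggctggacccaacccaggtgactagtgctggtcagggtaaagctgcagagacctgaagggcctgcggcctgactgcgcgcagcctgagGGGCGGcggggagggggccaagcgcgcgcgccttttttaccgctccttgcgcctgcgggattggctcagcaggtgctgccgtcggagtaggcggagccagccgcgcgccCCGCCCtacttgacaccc

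Gabre held 3 GC boxes, Gabrq 2, Gad1 1, and Gad2 and Slc32a1 none in these letters. The GC content of the 5 windows ran from 58% in Gad1 to 68.8% in Gabre, against a median of 52.4% over all 32851 RefSeq windows of this length. A GC box lay in 15 of the 27 windows that 22 of the 26 genes have in the table, and in 32.7% of all windows. A homeodomain core (TAATTA) lay in 1 window, that of Gabrg1, against 4.84% of all windows, and a glucocorticoid receptor half-site (AGAACA or its other strand TGTTCT) lay in 2, both of Gabrb2, against 16.1% of all windows. A match of letters is a description and not a bound site. In the Slc32a1 window, 196 bases also lie in an annotated exon. The windows follow RefSeq, and GENCODE on GRCm38 places some gene starts elsewhere. There Gad2 starts at 22622205 and Gabre, on the minus strand, at 72274803, both inside their windows. Gad1 starts at 70553072 in GENCODE, so its window lies within the gene.

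Values are given as CPM, the counts of a gene scaled to a fixed library total with the TMM factors of edgeR. A region was compared with the mean of the other 5 regions by edgeR's quasi-likelihood test with the mouse as a block, so that each of the 41 mice served as its own control. A gene was called when the Benjamini-Hochberg adjusted p over 17381 protein-coding genes was under 0.05 and the difference was at least 1 on the log2 scale. Gabra6, the alpha6 subunit known from cerebellar granule cells, did not pass the filter on low counts. It was at 0 in 194 libraries and reached 6 counts at most, which left 25 genes to test.

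Of these 25 genes, 17 were called in at least 1 region (68%), where 27.7% of all genes were. The largest difference between any pair of regions had a median of 1.87 (log2) over the 25 genes and 0.72 over all genes. In the DMT, 6 genes were higher and 4 lower, against 8.79% and 9.56% of all genes. In the BLA 7 were higher and 0 lower (6.63% and 1.78%), in the Nacc 4 were higher and 2 lower (4.48% and 4.79%), and in the vHipp 1 was higher and 7 lower (5.33% and 5.6%). In the mPFC 1 was higher and 2 lower (3.34% and 4%), and in the ACC 0 were higher and 3 lower (3.45% and 4.44%). Every called difference had an edgeR adjusted p of at most 3.66e-14, the value of Gabrq in the ACC. Fewer cells of a type and less RNA per cell cannot be told apart in bulk tissue, here and in all results that follow.

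**Figure D1:**
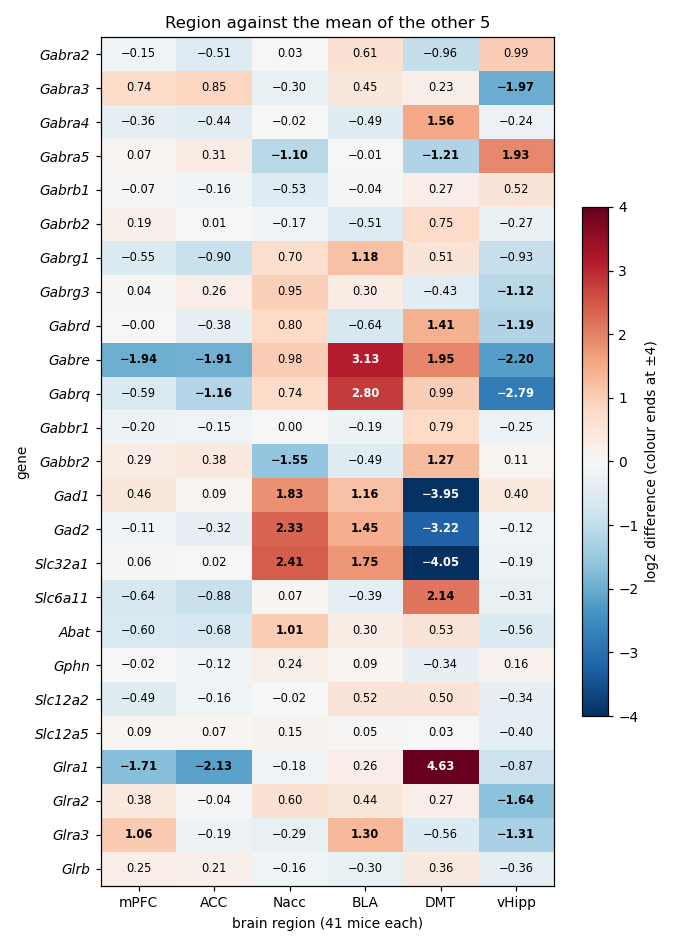
Heat map of the log2 difference between each brain region (columns, 41 mice each) and the mean of the other 5 regions for the 25 genes tested (rows); numbers in bold were called by edgeR. Red cells are higher and blue cells lower, and the DMT column holds both the highest value, Glra1 at 4.63, and the lowest, Slc32a1 at −4.05.

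Among the genes for making and loading GABA, Gad1, Gad2 and Slc32a1 shared an order of regions in which the Nacc was highest, the BLA second and the DMT lowest. Gad1 in the Nacc ranged from 518 to 1073 CPM with a median of 733, and in the DMT from 3.63 to 165 CPM with a median of 15.9. The ranges of these regions did not overlap. Gad1 was higher in the Nacc by 1.83 ± 0.091 (log2, SE) and in the BLA by 1.16 ± 0.095, and in the DMT it fell by 3.95 ± 0.142. Gad2 differed in the same regions by 2.33 ± 0.067, 1.45 ± 0.07 and −3.22 ± 0.101 (log2), and Slc32a1 by 2.41 ± 0.08, 1.75 ± 0.083 and −4.05 ± 0.131. The mPFC, ACC and vHipp stood close to each other: for all 3 genes these regions ranked below the BLA and above the DMT, and neighbouring ones among them did not pass the test against each other.

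Markers of inhibitory neurons followed these levels in part, and their part in them was not tested. The summed level of 10 markers of GABAergic interneurons was 118 to 209 CPM in the DMT and 281 to 764 CPM across the other 5 regions, without overlap. In the DMT 4 of the 10 had a median under 1 CPM, among them Vip at 0.106 and Lhx6 at 0.282 CPM. Other markers of the list were not low there: Nxph1 was highest in the DMT (median 84.7 CPM, against 26 to 38.1 CPM elsewhere), and Pvalb had medians of 12.8 CPM in the DMT and 12 CPM in the BLA. Outside the DMT the summed level did not follow the order of Gad1 and Gad2, with medians of 653 CPM (mPFC), 606 CPM (ACC), 603 CPM (Nacc), 575 CPM (BLA) and 339 CPM (vHipp). The summed level of 10 markers of striatal medium spiny neurons, which are GABAergic, was 1952 to 6743 CPM in the Nacc and 890 to 5322 CPM in the BLA. In the vHipp it was 220 to 296 CPM. In the BLA punches Adora2a, a marker of striatal neurons, had a median of 136 CPM, and Ttr, a marker of choroid plexus, a median of 2354 CPM with a range from 0 to 5071. The summed level of 4 markers of basolateral amygdala neurons was highest in the BLA, at 549 to 1489 CPM with a median of 981, and overlapped with that in the vHipp, at 689 to 962 CPM. One of the 4, Rspo2, had a lower median in the BLA (18.9 CPM) than in the ACC (42.3 CPM). The DMT was set apart by relay neuron markers, with Slc17a6 at 521 to 812 CPM against at most 95.6 CPM in any other region.

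In the DMT, the mice differed more in Gad1 and Slc32a1 than in the other genes listed. The SD across 41 mice was 1.52 (log2) for Gad1 and 1.53 for Slc32a1 there, against a median of 0.18 over the 25 genes and 0.13 over all genes. In the 10 DMT libraries with the most Gad1 (51.8 to 165 CPM), Sst, the gene of the interneuron peptide somatostatin, was at 10.1 to 31.7 CPM, and in the other 31 libraries it was at 1.1 to 10.9 CPM. Pvalb was at 14.6 to 46.9 CPM (median 27.8) in those 10 libraries and at 6.47 to 23 CPM (median 11.3) in the other 31. Ttr was at 0.0331 to 1212 CPM (median 62.6) and at 0 to 920 CPM (median 19.5). The ranges of both genes overlapped, those of Ttr over most of their length. The library of ELA_SAFit2 mouse 23 after social interaction, second in Gad1 with 134 CPM and first in Slc32a1 with 46.6 CPM, had the most Ttr (1212 CPM) and the least Tcf7l2, a thalamic marker (365 CPM). How much of the spread goes with the position of the punch was not tested.

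Clearance and breakdown of GABA followed other patterns. Slc6a11, the transporter GAT-3 that is found mainly on astrocytes, ranged from 614 to 849 CPM in the DMT with a median of 749. Its median in the other regions lay between 124 CPM in the ACC and 196 CPM in the Nacc, and of those 5 regions only the Nacc reached into the DMT range, in 1 library at 616 CPM. Slc6a11 was higher in the DMT by 2.14 ± 0.047 (log2), where the genes that make GABA were lowest. The summed level of 6 astrocyte markers was 1415 to 1796 CPM in the DMT and 1631 to 2111 CPM in the vHipp, where Slc6a11 had a median of 179 CPM. Abat was higher in the Nacc by 1.01 ± 0.023 (median 668 CPM), with the DMT next at 500 CPM and the ACC lowest at 245 CPM. Neighbours in its order did not pass the test among the vHipp, mPFC and ACC.

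**Figure D2:**
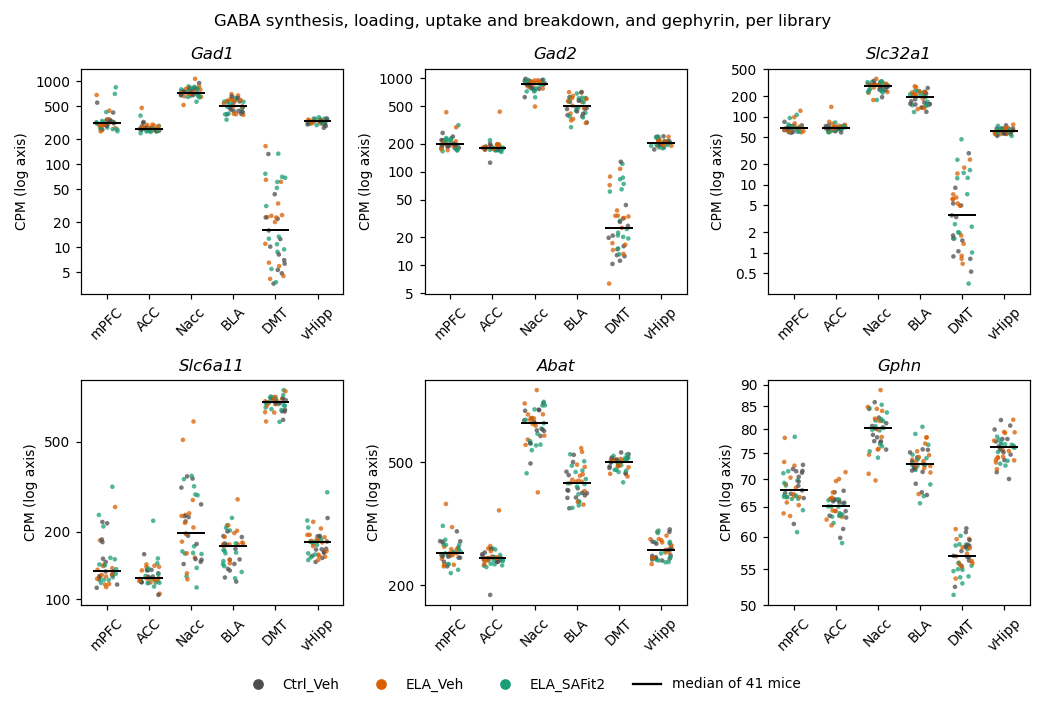
Level (CPM, log axis) of Gad1, Gad2, Slc32a1, Slc6a11, Abat and Gphn in each library by brain region, coloured by condition, with the median of 41 mice as a line. Gad1, Gad2 and Slc32a1 spread over a wide range in the DMT, where their medians are lowest, and Slc6a11 is highest in the DMT with a median of 749 CPM.

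The 4 expressed alpha subunits of the GABA-A receptor, which shape its affinity and placement, each had a different order of regions. Gabra2 ranged from 291 to 366 CPM in the vHipp, and from 81.3 to 133 CPM in the DMT. These ranges did not overlap, and its differences from the other regions were 0.99 ± 0.019 and −0.96 ± 0.022 (log2), both just under the limit of 1, so it was not called. Gabra3 was highest in the ACC (median 228 CPM), which did not differ by the test from the mPFC (208 CPM), and it was lowest in the vHipp at 23.2 to 79.2 CPM. Every vHipp library lay below every library of the other 5 regions, and the difference was −1.97 ± 0.043. Gabra4 was highest in the DMT (median 375 CPM, difference 1.56 ± 0.027), and its medians in the other 5 regions ran from 112 to 149 CPM. One DMT library, at 166 CPM, lay within the range of the Nacc.

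Gabra5, whose subunit is known from extrasynaptic receptors of the hippocampus, was the 1 gene called higher in the vHipp. It ranged there from 152 to 223 CPM with a median of 186, and no library of another region exceeded 114 CPM. The difference was 1.93 ± 0.035 (log2) in the vHipp, −1.1 ± 0.044 in the Nacc and −1.21 ± 0.044 in the DMT, and the Nacc and DMT did not differ from each other by the test. Per kilobase of exon, Gabra5 made up 45.1 ± 2.99% (SD) of the 4 alpha subunits in the vHipp. Gabra3 made up 48.1 ± 1.52% in the ACC and Gabra4 48.6 ± 4.51% in the DMT. In the Nacc no alpha subunit exceeded 32.9 ± 4.87%, the share of Gabra3. These shares are of the 4 listed subunits alone.

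**Figure D3:**
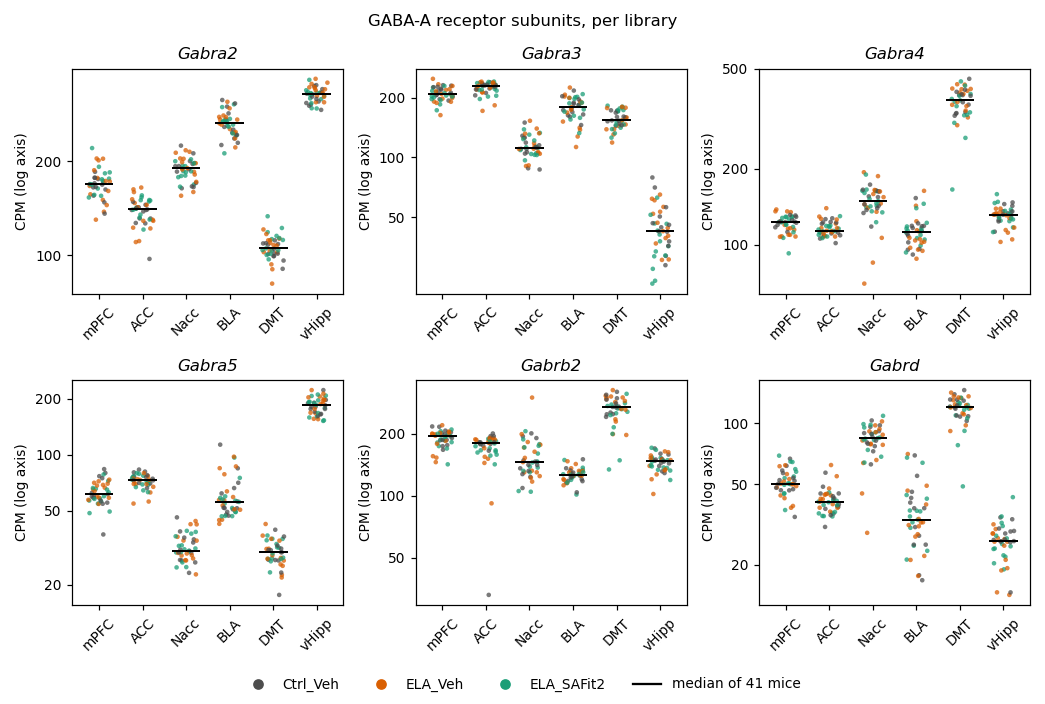
Level (CPM, log axis) of the GABA-A receptor genes Gabra2, Gabra3, Gabra4, Gabra5, Gabrb2 and Gabrd in each library by brain region, coloured by condition, with the median of 41 mice as a line. The vHipp is highest for Gabra2 and Gabra5 and lowest for Gabra3, and the DMT is highest for Gabra4, Gabrb2 and Gabrd.

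The beta subunits, to which GABA binds together with alpha, varied less, and neither Gabrb1 nor Gabrb2 was called in any region. Gabrb2 was nonetheless highest in the DMT (median 268 CPM) by 0.75 ± 0.039 (log2) and lowest in the BLA (126 CPM) by −0.51 ± 0.043. Gabrb1 was highest in the vHipp (318 CPM) by 0.52 ± 0.025 and lowest in the Nacc (178 CPM) by −0.53 ± 0.027. The delta subunit gene Gabrd, which with alpha4 forms extrasynaptic receptors in the thalamus, was highest in the DMT at 48.8 to 146 CPM and lowest in the vHipp at 14.2 to 43.2 CPM. Its differences were 1.41 ± 0.049 and −1.19 ± 0.061, and these ranges did not overlap. Gabrd and Gabra4 thus were both called higher in the DMT and in no other region. The gamma subunit genes were highest elsewhere: Gabrg1 in the BLA (median 65.8 CPM, difference 1.18 ± 0.035) and Gabrg3 in the Nacc (84.6 CPM, 0.95 ± 0.026). Gabrg3 was called only in the vHipp, where it was lower by −1.12 ± 0.031.

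Gabre and Gabrq, the epsilon and theta subunits known from amygdala, hypothalamus and brainstem, had low counts with a steep order of regions. Gabre ranged from 0.705 to 10.9 CPM in the BLA with a median of 5.38, and from 0 to 0.626 CPM in the vHipp. Gabrq ranged from 5.44 to 31.4 CPM in the BLA with a median of 15.5, and from 0 to 2.23 CPM in the vHipp. For both genes the BLA and vHipp ranges did not overlap. The differences in the BLA were 3.13 ± 0.101 (log2) for Gabre and 2.8 ± 0.088 for Gabrq, and in the vHipp −2.2 ± 0.212 and −2.79 ± 0.169. The DMT was second for both genes, and Gabre was called higher there too, at 1.95 ± 0.117. Counts of Gabre were small, with a median of 147 in the BLA and 6 in the vHipp, and 2 libraries were at 0.

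Genes that lie side by side in the genome did not share 1 pattern. Coordinates here are those of GENCODE on GRCm38. On chromosome X, Gabre and Gabrq, highest in the BLA, flank Gabra3, highest in the ACC, at gaps of 157.9 and 168.3 kb. On chromosome 5, Gabrg1, Gabra2, Gabra4 and Gabrb1 lie in this order, and they were highest in the BLA, the vHipp, the DMT and the vHipp. Gabra4 and Gabrb1 lie there head to head on opposite strands and overlap by 196 bases; how reads over the overlap were divided depends on the strand setting of the counting, which is not given in the sources used here. On chromosome 7, Gabrg3, highest in the Nacc, and Gabra5, highest in the vHipp, are 20.5 kb apart.

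The GABA-B receptor needs both of its subunits at the cell surface, GABBR1 to bind GABA and GABBR2 to couple to G proteins. Gabbr1 was highest in the DMT at 1257 to 1822 CPM, and its medians in the other 5 regions ran from 813 to 949 CPM. Gabbr2 was highest in the DMT as well (median 952 CPM, difference 1.27 ± 0.028 in log2), and lowest in the Nacc at 132 to 300 CPM, where the difference was −1.55 ± 0.035. In the Nacc, Gabbr1 stood at the mean of the other regions, with a difference of 0 ± 0.013 and an adjusted p of 0.976 by edgeR. The ratio of Gabbr1 to Gabbr2 per kilobase of exon was 4.55 ± 0.851 (SD, n = 41) in the Nacc and 2.21 ± 0.478 in the BLA. It was between 1.33 ± 0.13 in the ACC and 1.47 ± 0.0922 in the vHipp in the other 4 regions. In the Nacc the lowest of the 41 ratios was 2.49, above the highest ratio of the mPFC, ACC, DMT and vHipp, which was 2.06. The medians of the ratio over the 6 groups of Nacc libraries ran from 4.2 to 4.7.

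Gephyrin, the scaffold that anchors GABA-A and glycine receptors, varied little. Gphn medians lay between 57 CPM in the DMT and 80.2 CPM in the Nacc, and no region differed from the mean of the other 5 by more than 0.34 in absolute log2 size. The largest difference between a pair of regions was 0.49 ± 0.013 (log2), the Nacc against the DMT. The chloride exporter gene Slc12a5 (KCC2), specific to neurons, was also even, with medians of 679 to 722 CPM in 5 regions and 525 CPM in the vHipp. The importer gene Slc12a2 (NKCC1) had its lowest median in the mPFC (56.1 CPM) and its highest in the BLA, where it ranged from 62.9 to 158 CPM. The BLA and DMT, its highest regions, did not differ from each other by the test. The ratio of Slc12a5 to Slc12a2 per kilobase was above 1 in every library, lowest at 5.39 in a BLA library and highest at 25.3 in an ACC library. Choroid plexus also expresses Slc12a2, and its markers summed to 23.3 to 5751 CPM in the BLA; their part in that spread was not tested.

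Among the glycine receptor subunits, Glra1, the alpha1 subunit known from brainstem and spinal cord, was far higher in the DMT than elsewhere. It ranged there from 6.02 to 30.4 CPM with a median of 16.1, and no library of another region exceeded 5.86 CPM. The difference was 4.63 ± 0.086 (log2), the largest of all the genes listed, and Glra1 was called lower in the mPFC and ACC. Glra2 was lowest in the vHipp (5.21 to 12.9 CPM, −1.64 ± 0.051). Its medians in the other regions ran from 21.9 to 30.7 CPM. Glra3 was highest in the BLA (median 36 CPM, 1.3 ± 0.058) and the mPFC (33.4 CPM, 1.06 ± 0.059), and lowest in the vHipp (8.47 CPM, −1.31 ± 0.075). The beta subunit Glrb, which binds gephyrin, varied least of the 4 genes, from a median of 162 CPM in the vHipp to 245 CPM in the DMT.

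**Figure D4:**
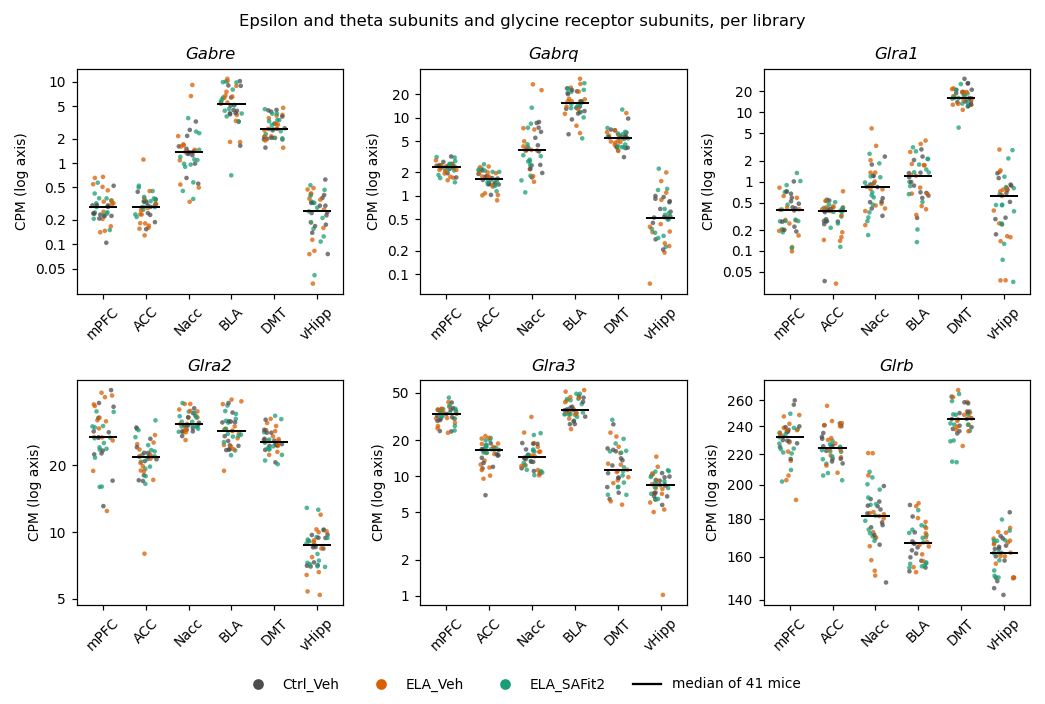
Level (CPM, log axis) of Gabre, Gabrq, Glra1, Glra2, Glra3 and Glrb in each library by brain region, coloured by condition, with the median of 41 mice as a line; the 2 libraries at 0 for Gabre and the 1 at 0 for Gabrq are not drawn. Gabre and Gabrq peak in the BLA and Glra1 in the DMT with a median of 16.1 CPM, and 2 Nacc libraries stand above the rest for Gabre and Gabrq.

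A list of 20 other genes of GABA and glycine signalling, all of them tested, was followed as well. In the DMT 2 of them were higher and 2 lower, in the vHipp 3 and 1, in the Nacc 2 and 2, in the BLA 1 and 3, in the ACC 1 and 2 and in the mPFC 1 and 1. Of all genes, 8.79% were higher and 9.56% lower in the DMT, 5.33% and 5.6% in the vHipp, 4.48% and 4.79% in the Nacc, 6.63% and 1.78% in the BLA, 3.45% and 4.44% in the ACC and 3.34% and 4% in the mPFC, and 1 gene is 5% of the list. The glycine transporter genes Slc6a5, of glycinergic neurons, and Slc6a9, mainly of astrocytes, were the 2 that were higher in the DMT, by 5.44 ± 0.091 and 1.63 ± 0.033 (log2). Slc6a5 was at 0.819 to 30.9 CPM there. It reached at most 1.29 CPM in the mPFC, ACC, Nacc and BLA, and 2.25 CPM in the vHipp. The highest values of the mPFC and vHipp lay within the DMT range. Shisa7, an auxiliary subunit of GABA-A receptors, was lower in the DMT by −2.48 ± 0.03, at a median of 53.1 CPM. The GABA-B auxiliary subunit genes differed from each other: Kctd12 was higher in the vHipp by 1.33 ± 0.031, and Kctd8 was higher in the Nacc by 1.52 ± 0.056 and lower in the vHipp by −1.33 ± 0.077.

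Some libraries carried markers of neighbouring tissue. Of the 41 mPFC libraries, 14 carried Doc2g, an olfactory bulb gene, at 7.11 to 88.6 CPM, where libraries with no such sign had 1.48 to 5.2 CPM. Gad1 reached 847 CPM in those 14 libraries and at most 333 CPM in the 25 libraries with no sign. In 2 mPFC and 3 ACC libraries Adora2a was at 36.7 to 75.2 CPM, and mouse 61 (ELA_Veh, social interaction), which had the most in both regions, had the highest Gad2 of both, at 433 and 438 CPM. The ACC library of Ctrl_Veh mouse 89 after social interaction had the lowest correlation with its region, and 33 CPM of Gabrb2 where no other ACC library was below 91.7 CPM. In 12 of 41 Nacc libraries, 6 of them without social interaction, 60 genes that vary between mice matched another mouse better than the mouse named in the label. The best match of 8 of the 12 was a mouse of the other interaction set, so the group labels of these libraries are in doubt. Each of the 12 best matches was a different mouse, and all were among the mice named on these 12 libraries. The best matches had correlations of 0.892 to 0.983 over the 60 genes, against −0.222 to 0.162 with the labelled mouse. The labels were kept as given, and how the mismatch arose was not tested. Doc2g was over 5 CPM in 5 ACC libraries as well, at 5.97 to 39.3 CPM, where the other 36 were at 4.64 CPM or below. The region counts changed by at most 1 gene in any region and direction without the 12 Nacc libraries or without the 22 libraries that stood apart.

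The next comparisons asked whether early life adversity, or SAFit2 given on top of it, went with a change of these genes in adults. In mice without social interaction, no listed gene was called in any of the 18 comparisons of 3 conditions in 6 regions by edgeR, and no gene of the table was (0%). At an unadjusted p under 0.05 there were 19 of 450 tests of the listed genes (4.22%) and 4.36% of all tests. DESeq2 also called 0 of the 450, and called 32 of all tests, which numbered 275076 in edgeR. In mice with social interaction 0 of 450 were called against 0.000365% of all tests, with 17 at an unadjusted p under 0.05 (3.78%, against 3.89% of all tests). Over both sets 0 were called against 0.00421%, with 14 at that level (3.11%, against 4.73%). DESeq2 called 0 in both, and called 70 and 99 of all tests, which numbered 273834 and 284928 in edgeR. With the counts of a mouse added up over its 6 regions, edgeR called 0 of 25 in each of the 3 condition comparisons (0%, 0% and 0.00575% of all genes). At an unadjusted p under 0.05 there were 4 in ELA_Veh against Ctrl_Veh (6.69% of all genes), 3 in ELA_SAFit2 against ELA_Veh (5.6%) and 0 in ELA_SAFit2 against Ctrl_Veh (4.26%). The smallest p was that of Gabrg1, at 0.11 ± 0.038 (log2) in the first, with an adjusted p of 0.526.

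Gabrq and Gabre in the Nacc were among the 3 gene and region pairs with the smallest unadjusted p in both comparisons with ELA_Veh in mice without social interaction. Gabre ranged from 0.556 to 1.6 CPM in Ctrl_Veh, from 0.498 to 9.18 CPM in ELA_Veh and from 0.453 to 1.46 CPM in ELA_SAFit2 (7 mice each, no social interaction), with medians of 1.31, 1.46 and 1.1 CPM. The groups overlapped, and the ELA_Veh group held 2 libraries, of mice 43 and 69, at 9.18 and 6.69 CPM, with its other 5 at 1.6 CPM or below. The fitted differences for Gabre were 1.44 ± 0.5 (log2) in ELA_Veh against Ctrl_Veh and −1.52 ± 0.501 in ELA_SAFit2 against ELA_Veh, with edgeR adjusted p of 0.839 and 0.586. For Gabrq they were 1.51 ± 0.511 and −1.55 ± 0.511, with the same adjusted p. Both comparisons share the ELA_Veh libraries.

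The Nacc library labelled mouse 69 is 1 of the 12 that matched another mouse. Its best match was mouse 61 (correlation 0.925), an ELA_Veh mouse of the set with social interaction. The Nacc library of mouse 43 matched its own label. The libraries of mice 43 and 69 held the 2 highest values of the 41 Nacc libraries for Slc6a11 (511 and 616 CPM), Glra1 (3.28 and 5.86 CPM), Slc17a6 (43.6 and 66.8 CPM) and Lhx6, and the 2 lowest for Drd1, a marker of striatal neurons, at 122 and 79.3 CPM. They also held the 2 lowest values of Gabra4 in the Nacc. Without these 2 libraries the differences of Gabre were 0.04 ± 0.305 and −0.12 ± 0.305, and those of Gabrq 0.05 ± 0.304 and −0.09 ± 0.304. These 2 held the highest Nacc values of both genes, so smaller differences follow from leaving them out. Without the 12 mismatched libraries, which include mouse 69 but not mouse 43, Gabre differed by 1.18 ± 0.627 and −1.34 ± 0.63. Gabrq then differed by 1.09 ± 0.616 and −1.29 ± 0.62. Unadjusted p by edgeR was 0.0502 to 0.0968 in these 4 fits. In mice with social interaction the same comparisons gave −0.58 ± 0.471 and 0.29 ± 0.461 for Gabre. The test of the difference between the sets for ELA_Veh against Ctrl_Veh gave −2.01 ± 0.708 for Gabre, with an unadjusted p of 0.00715 and an adjusted p of 0.859 by edgeR. Over all such tests edgeR and DESeq2 both called 0 of 450 listed-gene tests (0.00772% of all tests by edgeR and 0.0147% by DESeq2). At an unadjusted p under 0.05 there were 19 of the 450 by edgeR (4.22%, against 3.97% of all tests) and 21 by DESeq2 (4.02% of all tests).

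The other pairs with the smallest p for a comparison were small or variable. Slc32a1 in the ACC was at 59 to 72.7 CPM in ELA_SAFit2 and 68 to 84.3 CPM in ELA_Veh, which overlapped, a difference of −0.19 ± 0.058 (log2; adjusted p = 0.721 by edgeR) and of −0.21 ± 0.138 in mice with social interaction. With social interaction each of these groups held a library that stood apart by Adora2a, mouse 61 in ELA_Veh and mouse 79 in ELA_SAFit2. That of mouse 61 had the most Slc32a1 of the ACC, at 140 CPM. Gabra5 in the ACC differed by −0.14 ± 0.062 between ELA_Veh and Ctrl_Veh (adjusted p = 0.701 by edgeR), and by −0.07 ± 0.065 with social interaction. Between ELA_SAFit2 and Ctrl_Veh, Gabra3 in the vHipp was at 23.9 to 46.3 CPM and 28.7 to 79.2 CPM. That difference, −0.56 ± 0.194 with an adjusted p of 0.806 by edgeR, was 0.01 ± 0.193 in mice with social interaction. In the DMT, Gad1 was at 8.77 to 70.5 CPM in ELA_SAFit2 and 3.63 to 22.8 CPM in Ctrl_Veh, and the difference of 1.52 ± 0.564 had an adjusted p of 0.945 by edgeR; Slc32a1 differed by 1.67 ± 0.653 with the same adjusted p. These are the 2 genes with the widest spread between DMT libraries, and they varied there with Sst and Pvalb as described above.

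The last comparison asked which genes differed after 10 minutes with an unfamiliar mouse, over the 3 conditions weighted equally. Of 150 tests of the listed genes 2 were called by edgeR, where 2.64% of all tests were, and 17 (11.3%) had an unadjusted p under 0.05, where 13.2% of all tests did. Gphn in the mPFC ranged from 60.7 to 72.7 CPM with a median of 66.7 without interaction (21 mice) and from 66.4 to 78.3 CPM with a median of 70 after it (20 mice). The groups overlapped, and the difference was 0.08 ± 0.022 (log2), with an adjusted p of 0.016 by edgeR (7.4% of all genes called in the mPFC). The 2 highest values, 78.3 and 78.1 CPM, were those of mice 79 and 93, which carried the most Doc2g of the mPFC libraries. Without the libraries that stood apart the difference was 0.05 ± 0.021, and its adjusted p was 0.272 by edgeR, so the call was lost. Summed over regions, Gphn was called, at 0.03 ± 0.009 with an adjusted p of 0.019 by edgeR (8.56% of all genes called), and it was the 1 listed gene with an unadjusted p under 0.05 there (22.4% of all genes). These sums hold the mPFC libraries that stood apart, and were not run without them.

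Slc6a11 in the ACC was at 119 to 223 CPM with a median of 135 without interaction, and at 104.7 to 143 CPM with a median of 122 after it. These ranges overlapped, and the difference was −0.17 ± 0.05 (log2; adjusted p = 0.0474 by edgeR, where 4.15% of all genes were called). The adjusted p stood near the limit: it was 0.0479 without the libraries that stood apart, and the call was lost with no filter on low counts (0.0553) and with all gene types (0.0603). The 5 ACC libraries with Doc2g over 5 CPM, 4 of them without interaction, held Slc6a11 at 135 to 223 CPM and among them the 3 highest values of the region, where the other 36 did not exceed 145 CPM. Without these 5 and the ACC libraries that stood apart, the difference was −0.11 ± 0.03 with an adjusted p of 0.0351 by edgeR (5.81% of all genes called). In the mPFC, Slc6a11 had a median of 184 CPM in the 14 libraries with Doc2g and 126 CPM in the 25 with no sign. In the BLA, Slc6a11 was at 143 to 278 CPM without interaction and 120 to 213 CPM after it, a difference of −0.24 ± 0.069 with an adjusted p of 0.0612. In the other regions it differed by −0.08 ± 0.117 in the mPFC, 0.06 ± 0.18 in the Nacc, −0.085 ± 0.03 in the DMT and −0.14 ± 0.06 in the vHipp, none of them called, and the difference between regions was not tested. Gabrb1 in the vHipp, at 283 to 349 CPM without and 295 to 380 CPM with interaction, differed by 0.11 ± 0.031 with an adjusted p of 0.0864 by edgeR. In the other regions no listed gene was called by edgeR, where 1.49% of all genes were called in the BLA, 1.6% in the DMT, 1.21% in the vHipp and 0% in the Nacc. In the Nacc 0 listed genes had an unadjusted p under 0.05, as 2.46% of all genes did. With the 12 mismatched libraries left out, 1 listed gene and 7.14% of all genes had an unadjusted p under 0.05, with 0 listed genes and 0.0256% of all genes called by edgeR, so the counts in the Nacc rest on labels in doubt. Of the 20 other genes of the pathway, Shisa7 in the mPFC (0.14 ± 0.042, adjusted p = 0.0284 by edgeR) and Kctd12 in the DMT (0.13 ± 0.029, adjusted p = 0.00809) rose, and no other was called in any region.

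**Figure D5:**
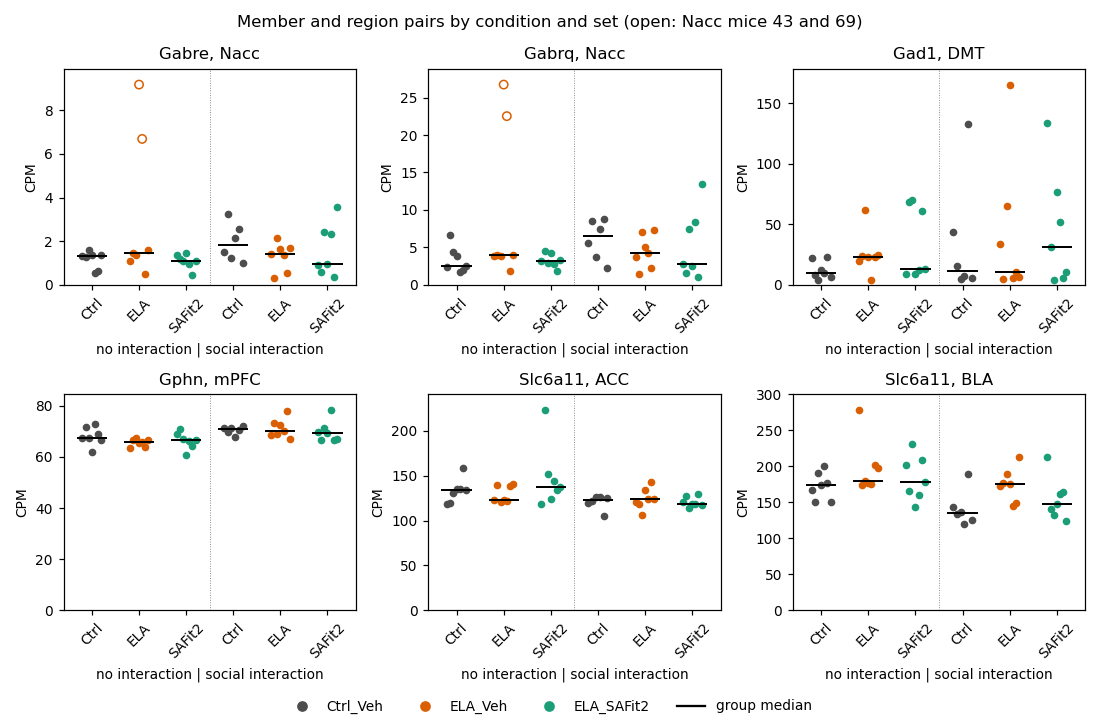
Level (CPM, axes from 0) of Gabre and Gabrq in the Nacc, Gad1 in the DMT, Gphn in the mPFC and Slc6a11 in the ACC and BLA, per mouse, by condition (colour) and set (left and right of the dotted line), with group medians as lines. The 2 open circles, mice 43 and 69 of ELA_Veh, stand at 9.18 and 6.69 CPM for Gabre. Within each set the ranges of the 3 conditions overlap in each panel.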

How the data were processed

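The authors deposited 1 table of estimated counts per gene for all libraries, made from a stranded poly-A kit and quantified per gene by salmon according to the table's name; the submitters' processing notes name STAR, DESeq2 and the builds GRCm39 and mm39 without versions, and the annotation release and strand setting are not given in the sources used here. Of the values 12.1% were not whole and were rounded. Genes with a summed count under 100, found in fewer than 6 libraries or not protein-coding were left out, as in the study's methods. Gene types, lengths and coordinates came from GENCODE on GRCm38 (52073 IDs matched) and upstream sequence from RefSeq (GRCm38.p6).

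Counts were fitted with edgeR 4.0.16 (R 4.3.3; TMM factors, quasi-likelihood test, Benjamini-Hochberg adjustment): regions over all libraries with the mouse as a block, conditions and social interaction within each region, and sums over the regions of a mouse. DESeq2 1.42.0 and limma 3.58.1 (voom) were alternatives. The fits were tested on simulated data. All tests were two-sided. The genes, lists and tests were chosen with earlier results of these data known. Named between conditions were called genes and the 3 gene and region pairs with the smallest p of each kind of contrast, and all 26 genes were named by region. Each mouse was treated as 1 replicate; p-values cover the spread between mice, and litters are not labelled.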

Additional observations from a re-analysis of the deposited data

Results flagged for a closer look

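In 8 of the 45 groups examined, 1 mouse stood apart from the rest of its group by Dixon's criterion, which chance meets in about 1 of 20 groups. For Slc6a11 these were 5 groups. In the ACC they were the Ctrl_Veh group without interaction (mouse 81 at 159 CPM, nearest 135), the ELA_SAFit2 group without interaction (mouse 15 at 223 CPM, nearest 152) and the Ctrl_Veh group after interaction (mouse 89 at 104.7 CPM, nearest 120). In the BLA they were the ELA_Veh group without interaction (mouse 5 at 278 CPM, nearest 202) and the Ctrl_Veh group after interaction (mouse 89 at 189 CPM, nearest 144). Gphn in the mPFC was at 78.3 CPM in mouse 79 (ELA_SAFit2, after interaction), where the nearest was 71.5. Gad1 in the DMT was at 61.4 CPM in mouse 37 (ELA_Veh, no interaction), where the nearest was 24.3. Gabrb1 in the vHipp was at 344 CPM in 1 ELA_Veh mouse without interaction, where the nearest was 308.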

How the results depend on the processing

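With no limit on the size of a region difference, the genes higher and lower were 8 and 12 in the mPFC, 6 and 15 in the ACC, 12 and 7 in the Nacc, 15 and 7 in the BLA, 17 and 8 in the DMT and 6 and 17 in the vHipp, of 25 genes. Under that rule 35.4% (ACC) to 42.7% (DMT) of all genes were higher and 35.9% (BLA) to 43.7% (DMT) lower. In mice without social interaction 2 genes were higher in the vHipp (5.15% of all genes), 5 were higher in the Nacc (4.49%) and 5 were lower in the DMT (9.43%). Without the replicate block of mice, 5 genes were higher in the Nacc (4.55% of all genes) and no other region count changed. For social interaction, 4 tests of the listed genes were called by DESeq2 (3.91% of all tests, against 2.64% by edgeR). There was 1 call each with no filter on low counts (1.88%), with all gene types (1.86%) and without the libraries that stood apart (2.41%). The last alternative was chosen after seeing the data, as was leaving out the ACC libraries with Doc2g. Without the libraries that stood apart, 27 tests of the listed genes had an unadjusted p under 0.05 by edgeR for social interaction (14.9% of all tests, against 13.2% with them). For the condition by interaction tests there were 11 (3.52%, against 3.97%). DESeq2 also called Slc6a11 in the BLA and Gabrb1 in the vHipp, and Slc6a11 in the ACC lost its call with no filter (adjusted p = 0.0553 by edgeR) and with all gene types (0.0603). No result reversed under any alternative run.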
